A study of Mus musculus with 8 samples.

Results

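The regions described here are stretches of open chromatin that were called in the epithelium of the E14.5 mouse lens and in no other sample group of the study. ATAC-seq, which cuts accessible DNA with a transposase and sequences the fragments, was run on CD1 mice, whose lens epithelium and fibers were taken at E14.5, an embryonic stage, and at P0.5, shortly after birth. The mice carried no transgene or treatment by the labels, the tissues were microdissected, and each of the 4 groups (E14.5 epithelium, E14.5 fiber, P0.5 epithelium and P0.5 fiber) had 2 libraries. The authors pooled the reads of both libraries before they called peaks, so each group has 1 peak list and no value below has an error between libraries. Peaks of the 4 lists on chromosomes 1 to 19 and X were merged when they lay within 10 bp of each other, which gave 185247 merged regions. Of these, 91456 held an E14.5 epithelium peak, and the 23901 with no peak of the other 3 lists were the members. They made up 26.1% of the E14.5 epithelium regions and 12.9% of all merged regions. With each list cut to as many of its strongest peaks as the shortest list holds, they numbered 8437, or 15.3% of the E14.5 epithelium regions. The members were selected on the peak calls themselves, so their number and the strength of their peaks are given as a description and were not tested.

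The lens epithelium is the layer of dividing cells that covers the front of the lens, and it supplies the cells that elongate into fibers at the equator. At the embryonic stage the lens is wrapped in a temporary net of blood vessels, the tunica vasculosa lentis, which regresses after birth. Distal open chromatin mostly marks enhancers, where transcription factors such as Pax6, AP-2, Sox and Maf proteins bind in the lens. Tead factors bind DNA and carry the co-activators Yap and Taz, the end point of Hippo signalling, which acts in the growth of epithelia. Ets factors act at the end of the FGF and ERK cascade and are also central to blood vessel cells.

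The label of the list was checked against marker genes. All 10 lens epithelium markers (among them Pax6, Foxe3, Cdh1 and Pitx3) carried an E14.5 epithelium peak less than 2 kb from a start of transcription. The same held for all 13 lens fiber markers, so promoter peaks alone did not separate the tissues. At the strongest promoter peak, 8 of the 10 lens epithelium markers and 13 of the 13 lens fiber markers had more fragments in the fibers than in the epithelium of E14.5, and 6 and 12 did once each count was divided by its list's background. In an example picked after its values were seen, Cryga, a gamma crystallin of fibers, had 8 in the epithelium and 290 in the fibers. The promoters of the epithelium markers thus did not set the E14.5 epithelium list apart from the fiber list.

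Sequences of members are shown first, since the comparisons below turn on the letters at the summit, the base with the most fragments. Each run is 120 bases of GRCm38 (mm10), plus strand, 5′ to 3′, centred on the summit, and capitals mark the consensus match. The first 4 are the strongest members with an assigned gene whose Tead consensus (GGAATG, or CATTCC on the other strand) lies within 30 bp of the summit. They were picked after their values were seen.
Faf1, chr4:109805455-109805574: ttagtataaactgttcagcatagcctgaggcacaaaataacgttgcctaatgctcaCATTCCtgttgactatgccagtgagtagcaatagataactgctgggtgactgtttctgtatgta
Tdrd5, chr1:156263485-156263604: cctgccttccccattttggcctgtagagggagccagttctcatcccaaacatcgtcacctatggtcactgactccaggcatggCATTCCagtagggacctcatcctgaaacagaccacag
Rint1, chr5:23826448-23826567: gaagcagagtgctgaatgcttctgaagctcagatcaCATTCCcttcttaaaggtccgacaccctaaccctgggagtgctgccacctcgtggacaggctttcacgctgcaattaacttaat
Rbms3, chr9:116771960-116772079: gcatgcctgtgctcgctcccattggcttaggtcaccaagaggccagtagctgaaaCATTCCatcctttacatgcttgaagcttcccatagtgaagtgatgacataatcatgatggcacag

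The Faf1 region lay in an intron, 128.9 kb downstream of the nearest start site of the gene, and had 36 fragments at its summit. The Tdrd5 region lay in a coding exon and had 32 fragments. The Rint1 region lay outside genes with 31 fragments, and the Rbms3 region lay in an intron with 30. The match was centred 1 bp from the summit at Faf1 and 2 bp from it at Rbms3.

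A second set shows the strongest members with an Ets consensus (GGAAGT, or ACTTCC) at 3 marker genes of blood vessel endothelium, because these loci held a large share of members (below).
Erg, chr16:95464797-95464916: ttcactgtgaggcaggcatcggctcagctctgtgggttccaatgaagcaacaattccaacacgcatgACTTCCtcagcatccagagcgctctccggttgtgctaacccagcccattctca
Tie1, chr4:118489818-118489937: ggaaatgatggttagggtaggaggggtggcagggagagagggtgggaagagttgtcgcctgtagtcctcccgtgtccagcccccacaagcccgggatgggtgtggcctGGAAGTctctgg
Flt1, chr5:147620300-147620419: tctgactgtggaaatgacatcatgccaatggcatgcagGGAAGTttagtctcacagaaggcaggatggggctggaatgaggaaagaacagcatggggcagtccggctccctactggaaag

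Erg is an Ets factor of endothelial cells, and its region was intronic with 19 fragments at the summit. Tie1 encodes an endothelial receptor, and its region lay 29 bp upstream of the start site with 12 fragments. Flt1 encodes a receptor of the vascular growth factor VEGF, and its region was intronic with 12 fragments. The last sequence is the strongest member whose window of 60 bp around the summit holds the core consensus of CTCF, the factor that bounds chromatin loops. It had 35 fragments and lay outside genes near Washc1.
Washc1, chr17:66107018-66107137: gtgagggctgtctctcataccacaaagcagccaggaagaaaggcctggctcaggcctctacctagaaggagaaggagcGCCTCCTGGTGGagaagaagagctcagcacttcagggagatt

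Members were weak peaks. The fold enrichment of each list is a whole multiple of a fixed step, so the number of fragments that overlap the summit can be read from it. Members had a median of 10 fragments at the summit, with 7 in the weakest and 42 in the strongest, and the middle 50% of them lay between 8 and 11. The other E14.5 epithelium regions had a median of 19 and reached 2489. The uniform background of the list was 1.61 fragments, so the median member stood 4.22-fold over it by the deposited fold enrichment.

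**Figure D1:**
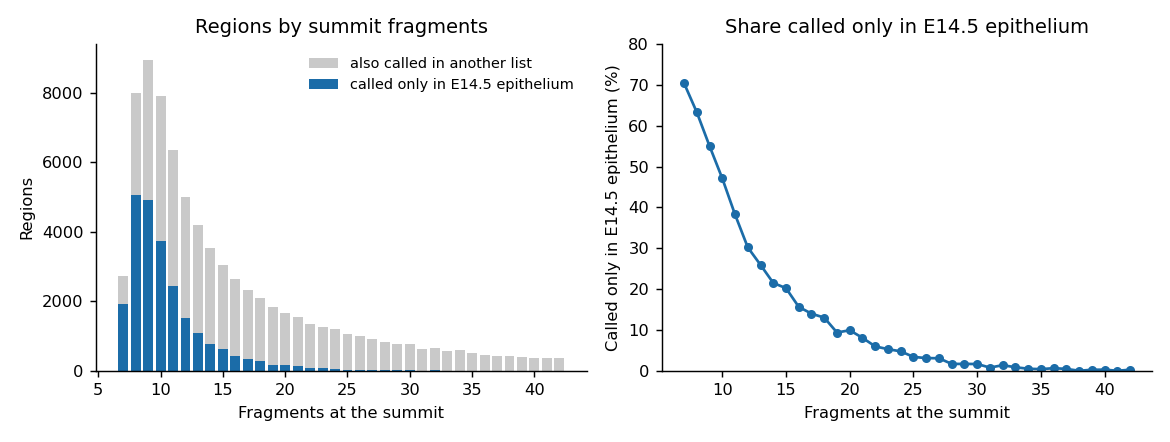
Left, the number of E14.5 epithelium regions (y axis) by fragments at the summit (x axis, 7 to 42), with members in blue and other regions in grey. Right, the share of regions that were members, which falls from 70.4% at 7 fragments to 9.93% at 20 fragments.

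The share of members followed the strength of the peak, as the plot of regions by summit fragments shows. It was 65.1% (95% Wilson interval 64.2 to 66.0) among 10729 regions with 7 or 8 fragments, and 1.59% (1.46 to 1.74) among 31142 regions with 21 or more. At the edge of the list, 1920 members had the minimum of 7 fragments. At least 15 fragments were found in 2460 members, while 660 had at least 20 and 45 had at least 30. These intervals, and all those below, cover counting error over regions of the pooled lists and not the spread between libraries.

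The 4 lists differ in background, and with it in the weakest peak that could be called. The background was 2.37 fragments for E14.5 fiber, 1.36 for P0.5 epithelium and 1.16 for P0.5 fiber, and the weakest peaks had 8, 7 and 6 fragments. When the member's fragments were scaled by the ratio of backgrounds, all 23901 reached the minimum of E14.5 fiber, whereas 16916 members (70.8%) reached that of either P0.5 list. By the deposited fold enrichment, which adds 1 to the fragments and to the background, 21981 members (92.0%) reached the weakest call of all 3 lists, and the 1920 members with 7 fragments fell below both P0.5 minima. The number that would have been called at P0.5 thus turns on how strength over background is scaled. With the ratio of backgrounds, 1430 members (5.98%) reached at least 2 times the minimum of all 3 lists.

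Members often stood near open chromatin of the other groups. The nearest peak of another list was a median of 1411 bp away, and 10219 members (42.8%) had a peak of another list within 1000 bp. Such a peak lay within 100 bp of 1613 members (6.75%), and 202 members were 11 to 20 bp from it, just outside the merging distance. Conversely, 191 of the other regions were joined to a peak of another list across a gap of 1 to 10 bp, and 480 had a single peak of another list at the minimum of that list. By group, the median distance was 2150 bp to E14.5 fiber, 5090 bp to P0.5 epithelium and 6235 bp to P0.5 fiber, lists of different length. The median gap between neighbouring members was 29.9 kb, 28.0% of the 23881 neighbouring pairs were under 10 kb apart, and 1153 pairs (4.83%) were under 1 kb apart.

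Members were also narrow. Their median width was 147 bp, and 90% were no wider than 258 bp. Among regions with 16 to 20 fragments, the strongest E14.5 epithelium peak had a median width of 158 bp in members and 266 bp in other regions. With 7 or 8 fragments these widths were 132 and 143 bp. Width comes from the same peaks as the rule and was not tested.

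The places of the regions were not used by the rule. Most members lay in gene bodies, 12833 of them (53.7%), followed by 6015 (25.2%) within 50 kb of a gene, 2533 (10.6%) in intergenic DNA and 2520 (10.5%, interval 10.2 to 10.9) within 2 kb of a transcription start site. Promoters made up 28.1% (27.8 to 28.5) of the other E14.5 epithelium regions, a difference of -17.6 points (Newcombe interval -18.1 to -17.1). Since weak peaks are rarer at promoters, shares were also compared within 10 bins of peak strength, weighted by the members in each. At the same strength the other regions were at 14.6%, and the difference was -4.06 points (-4.66 to -3.46). It was -2.16 points (-2.76 to -1.57) when GC content was also held. It was -7.54 points (-8.13 to -6.95) when members with another list's peak within 500 bp were left out, and -8.59 points when they were counted with the other regions, both of which remove by construction members close to shared open promoters.

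**Figure D2:**
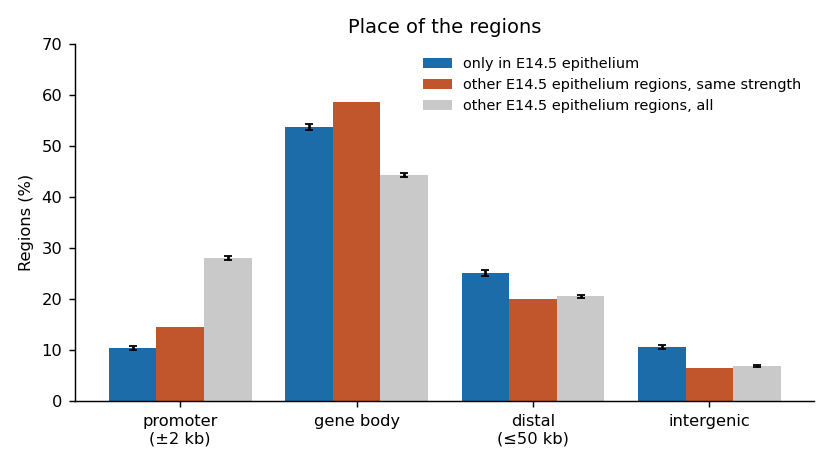
Share of regions (y axis, %) by place (x axis) for members (blue), for other E14.5 epithelium regions at the strength of members (orange) and for all other E14.5 epithelium regions (grey), with 95% Wilson intervals on the blue and grey bars. Of these 3 sets, members have the lowest promoter share, 10.5%, and the highest shares in distal, 25.2%, and intergenic DNA, 10.6%.

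The other places were compared in the same way, and the gene body share turned its direction. Without regard to strength it was higher in members than in the 44.3% of other regions, by 9.40 points (8.66 to 10.1). At the same strength the distal share of members was 5.02 points higher (4.27 to 5.77), the intergenic share 3.96 points higher (3.46 to 4.46) and the gene body share lower (-4.92 points, -5.81 to -4.02). The summit of a member lay a median of 20769 bp from the nearest start site, against 12482 bp for the other regions. By the base at the summit, 12180 members (51.0%) were intronic, 1517 (6.35%) in coding exons, 551 (2.31%) in 3′ UTRs and 132 (0.552%) in 5′ UTRs. The share in 5′ UTRs was 1.49% in other regions of the same strength (difference -0.933 points, -1.10 to -0.763).

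Among chromosomes the share of members ran from 24.5% on chromosome 6 to 28.0% on chromosome 3, and was 15.98% on the X. The share that strength alone gave for the X was 14.8%, so its low value went with stronger peaks.

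The sequence at the summit had a median GC content of 52% in members and 55% in other regions, over windows of 200 bp. Windows that were mostly repeats (over 50% soft-masked) were 958 members (4.01%), and 1.68% of other regions at the same strength, a difference of 2.33 points (2.03 to 2.64).

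The consensus of 26 transcription factor families was searched on both strands of these windows. A match is a run of letters and not a bound site. The Tead consensus was present in 4035 members (16.9%, 16.4 to 17.4), in 15.7% of other regions and in 16.02% of all E14.5 epithelium regions. At the same strength the other regions were at 14.8%, and members were higher by 2.09 points (1.44 to 2.74). With GC content held as well, the difference was 1.21 points (0.542 to 1.88), and it was 5.64 points (4.57 to 6.71) when the 4 lists were cut to the same length.

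The Tead consensus was concentrated at the summit. Windows centred 400 bp to the left and right of the same members held it in 11.1%, so the summit window was higher by 5.82 points (5.27 to 6.36). In other regions the same difference was 5.34 points (5.02 to 5.65).

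**Figure D3:**
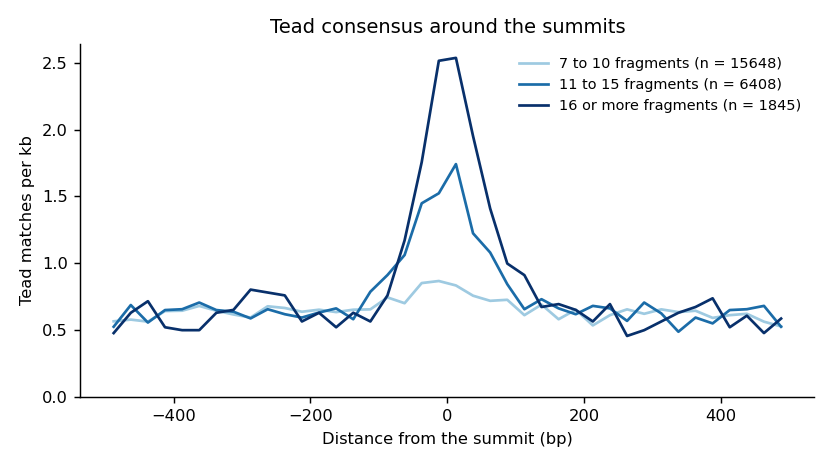
Tead consensus matches per kb (y axis) in bins of 25 bp by distance from the summit (x axis, bp) for members with 7 to 10 fragments (15648), 11 to 15 fragments (6408) and 16 or more (1845). The density just right of the summit is 0.833, 1.74 and 2.54 matches per kb in the 3 classes.

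Stronger members held it more often. The share was 12.3% (11.6 to 13.1) with 7 or 8 fragments, 15.2% (14.496 to 16.01) with 9 or 10 and 19.7% (18.5 to 21.02) with 11 or 12. It reached 23.8% (22.2 to 25.5) with 13 to 15 fragments and 26.8% (24.5 to 29.3) with 16 to 20. The 496 members with 21 or more had 25.8% (22.2 to 29.8), which overlaps the class before it. In other regions the share went from 12.7% (11.7 to 13.8) with 7 or 8 fragments to 18.3% (17.6 to 19.1) with 16 to 20, and was 15.1% (14.7 to 15.5) in the 30646 with 21 or more. The intervals of members and others overlapped among the weakest regions and were apart among the stronger. By place, the Tead share was 19.6% in intergenic members, 18.1% in distal ones, 16.4% in gene bodies and 13.7% at promoters.

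The Ets consensus had the largest positive difference at the same strength. It was present in 3427 members (14.3%, 13.9 to 14.8) and in 11.7% of other regions at that strength, a difference of 2.60 points (1.99 to 3.21) that was 2.52 points (1.89 to 3.14) with GC content held. Unlike Tead, it did not climb with strength: the share was 14.6% (13.8 to 15.4) with 7 or 8 fragments and 12.9% (10.2 to 16.1) with 21 or more. The summit window exceeded the flanks by 2.16 points (1.63 to 2.69) in members and 1.16 points (0.853 to 1.47) in other regions.

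**Figure D4:**
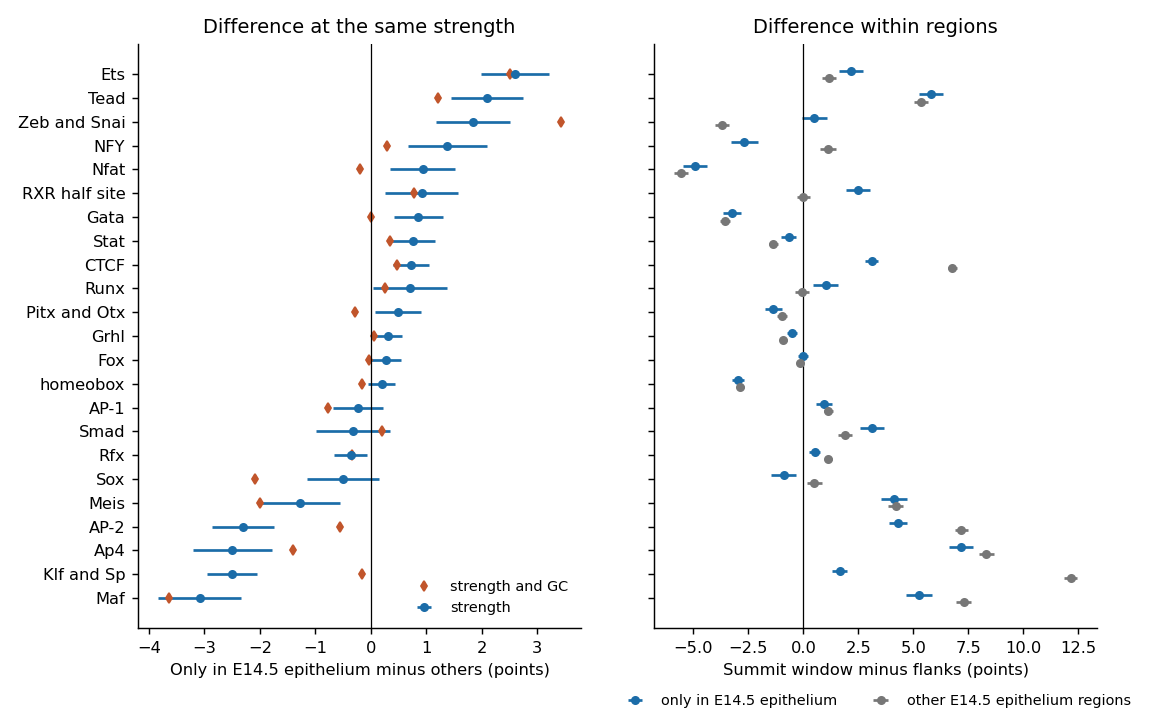
Left, members minus other E14.5 epithelium regions in the share of windows with each consensus (x axis, points; families on the y axis), at the same strength (blue, 95% intervals) and at the same strength and GC content (orange, no intervals drawn). Right, the summit window minus the flanking windows for members (blue) and other regions (grey). At the same strength Ets is highest on the left, at 2.60 points, and Maf lowest, at -3.08 points. With GC content held Zeb and Snai are highest, at 3.44 points, and 3 families in under 1% of members are not drawn.

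Of the 26 families, the interval at the same strength lay above 0 in 12, below 0 in 6 and held 0 in 8. With GC content held as well, 5 remained above 0 (Ets, Tead, Zeb and Snai, RXR and CTCF) and 7 were below it. The consensus CAGGTG of the zinc finger repressors Zeb and Snai was at 16.6% in members and 14.8% in other regions of that strength. The difference was 1.85 points (1.18 to 2.52), and 3.44 points (2.79 to 4.08) with GC content held, the largest positive value in that comparison, and the summit of members held it no more than the flanks (0.494 points, -0.0733 to 1.06). The consensus AGGTCA of RXR, a nuclear receptor of retinoid signalling, was higher by 0.919 points (0.263 to 1.58). For AP-1, the dimer of Fos and Jun proteins, the interval held 0 at the same strength (-0.224 points, -0.673 to 0.226) and lay below it with GC content held (-0.768 points, -1.24 to -0.295).

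Several families were rarer in members. The Maf consensus TGCTGA, of the factors that drive crystallin genes in fibers, was at 20.4% in members against 23.5% in other regions of that strength (-3.08 points, -3.84 to -2.33). AP-2 was lower by the same comparison (-2.31 points, -2.87 to -1.75), with -0.550 points (-1.08 to -0.0167) once GC content was held. Also lower at the same strength were Meis (-1.27 points, -1.99 to -0.552) and Klf and Sp (-2.50 points, -2.95 to -2.04). The value of Klf and Sp, whose consensus is made of G and C, was -0.156 points (-0.562 to 0.250) with GC content held. The interval of Sox held 0 at the same strength (-0.499 points, -1.16 to 0.158) and lay below it with GC content held (-2.08 points, -2.77 to -1.40). The interval of Gata lay above 0 at the same strength (0.858 points, 0.413 to 1.302) and held it with GC content (0.00519 points, -0.466 to 0.477), as did that of Pitx and Otx (0.499 points, 0.0863 to 0.911, and -0.292 points, -0.732 to 0.149).

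The CTCF share was higher in strong than in weak members. Its core consensus was in 1106 members (4.63%), and in 3.90% of other regions at the same strength. Against the regions of both E14.5 tissues at equal strength the interval of the difference held 0 (0.0607 points, -0.325 to 0.447). Against those called in the epithelium of both stages it lay above 0 (1.56 points, 0.784 to 2.33). In members the share was 1.88% (1.58 to 2.22) with 7 or 8 fragments, 9.83% (8.71 to 11.1) with 13 to 15, 17.1% (15.2 to 19.2) with 16 to 20 and 21.6% (18.2 to 25.4) with 21 or more. Other regions also rose, from 1.90% (1.51 to 2.39) with 7 or 8 fragments to 11.6% (11.003 to 12.3) with 16 to 20, and were at 10.4% (10.1 to 10.7) with 21 or more.

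Members were compared with the regions most like them. The 4219 regions called in the epithelium of both stages and in no fiber list had the Tead consensus in 30.1% (28.8 to 31.6). At the strength of members they were at 24.0%, and members were lower by 7.12 points (-7.12, -9.08 to -5.16). Against the 21158 regions called in both E14.5 tissues and at neither P0.5 tissue, members were higher by 2.69 points (1.93 to 3.45). Members thus stood between these sets in Tead, and above both in Ets, by 2.41 points (0.847 to 3.97) and 2.11 points (1.39 to 2.83). In Maf, members were lower than the regions of both E14.5 tissues (-4.48 points, -5.39 to -3.57), whereas the interval against the epithelium of both stages held 0 (1.295 points, -0.623 to 3.21). Promoters made up 7.63% of the regions called in the epithelium of both stages, and at equal strength the interval of the difference held 0 (1.38 points, -0.0284 to 2.80). Against the regions of both E14.5 tissues the promoter share of members was lower (-2.28 points, -2.99 to -1.57). The 54305 regions called only in E14.5 fibers, whose strength was measured in another list and was not held equal, lay at promoters in 9.64%, and had Tead in 11.4% (11.2 to 11.7) and Maf in 26.97% (26.6 to 27.3).

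The strongest members are described by gene. Of the 25 strongest, 11 were distal, 9 in gene bodies, 3 at promoters and 2 intergenic, with 32 to 42 fragments and widths of 103 to 559 bp. The nearest peak of another list was a median of 1714 bp away. The strongest of all, chr15:57509348-57509797, had 42 fragments and lay 32.0 kb upstream of Slc22a22, which encodes a transporter of prostaglandins. The next, with 40 fragments, was in an intron of Rhobtb3, and one with 39 lay near the noncoding gene 4933429O19Rik and 84 bp from a peak of another list. Intronic members with 36 fragments were found in Gpc6, a cell surface proteoglycan of the glypican family, in Faf1, a Fas-associated factor, and in Gm4827. Members with 34 fragments included 1 in Agpat4, an enzyme of phospholipid synthesis. Another of the 25, at Ap3d1, had a window that was 63.5% soft-masked.

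At promoters, the strongest members had 37 fragments at Ccl27a, a chemokine gene, and at Rgs3, a regulator of G protein signalling. The Ccl27a region was 103 bp wide, 157 bp from a peak of another list and 15 bp from the start site. Tuft1, which encodes tuftelin, followed with 32 fragments at 26 bp from its start site. Ets1, an Ets factor, had a member with 30 fragments 91 bp upstream of a start site, with no peak of another list within 19771 bp. The next were Lrtm1 with 29 fragments, Lpar1, a receptor of lysophosphatidic acid, with 27, Kcnh1, a potassium channel, with 26, the homeobox gene Dlx2 with 25, Pold2, a subunit of DNA polymerase delta, with 24 and the noncoding gene Gm36529 with 23.

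The widest members were not the strongest. The widest, 1111 bp near A230083G16Rik, had 12 fragments, and those of 910 bp in Arhgap39 and 851 bp in Stra6, a receptor for retinol uptake, had 15. The others of the 5 widest were 909 bp near A630001O12Rik with 22 fragments and 860 bp in Rgs3 with 10.

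Members were spread over 8231 protein-coding genes, of which 4168 had 1 member and 189 had at least 10. The largest numbers were at long genes. Trpm3, a cation channel gene of 856.4 kb, had 53 members among 157 E14.5 epithelium regions, where strength alone gave 58.0. The transcription factor gene Foxp1 had 35 of 110 with 36.1 from strength, so both lay below the number from strength. Pdzd2 and Tenm2, which encodes a teneurin, had 33 each, of 81 and 65 regions, against 26.5 and 21.8 from strength. Camk1d, a calmodulin-dependent kinase, had 30 of 57 against 18.9. Pknox2, Tenm3 and Wwox had 28 each, of 67, 74 and 76 regions, against 18.5, 22.1 and 25.1. Hmga2, an architectural factor of embryonic growth, had 26 of 55 against 19.2, and Hspg2, which encodes the basement membrane proteoglycan perlecan, had 26 of 54 against 23.9. Zmiz1 had 26 of 85, below the 32.3 from strength.

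Genes of known pathways were counted at their loci, the gene body with 50 kb on either side. The lists were drawn up with earlier results of these data known, and the shares are a description. They are read against 26.1% over all E14.5 epithelium regions and against the share that the strength of the peaks at the loci gives.

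**Figure D5:**
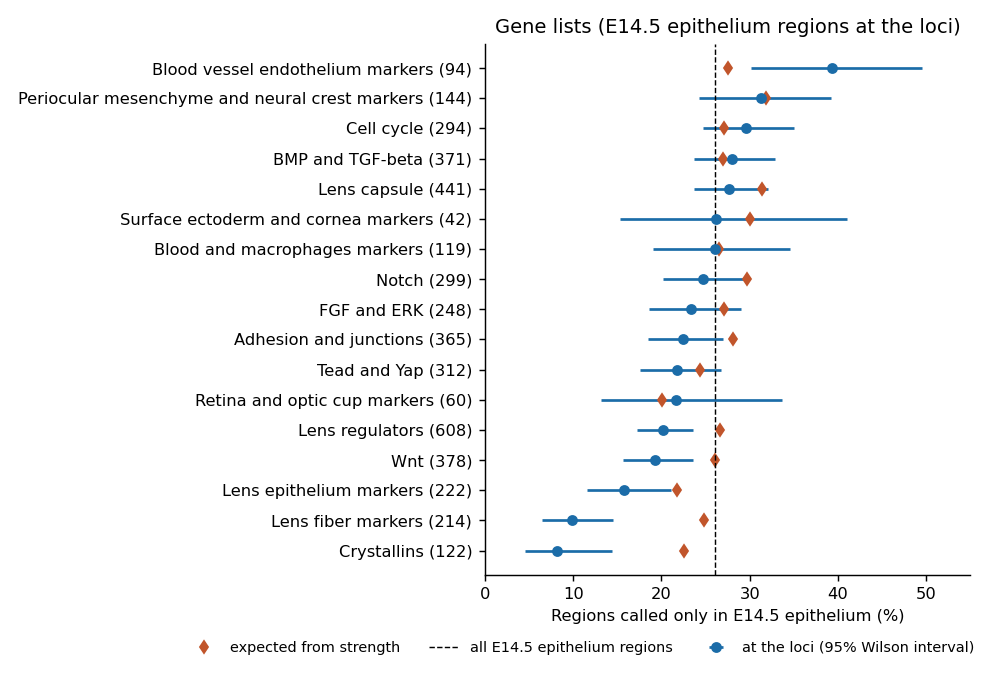
Share of E14.5 epithelium regions that were members (x axis, %) at the loci of each gene list (y axis, number of regions in parentheses), with 95% Wilson intervals (blue), the share expected from strength (orange) and 26.1% over all regions (dashed). Blood vessel endothelium markers are highest at 39.4%, lens fiber markers (9.81%) and crystallins (8.20%) lowest.

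Lens genes held few members. At the 29 lens regulators, 123 of 608 regions (20.2%, 17.2 to 23.6) were members, where strength gave 26.6%. Sox2, a factor of early lens and neural fate, had 16 of 43 where strength gave 13.1, and Mafk had 12 of 33 against 11.9. Gata3 and Nfib had 8 each, of 22 and 28 regions, against 7.94 and 8.63. Pitx3, Maf and Sox11, named after their values were seen, had none of 12, 7 and 3 regions, where strength gave 2.23, 1.83 and 0.51. Lens epithelium markers had 35 of 222 (15.8%, 11.6 to 21.1) against 21.7%, with 9 of 30 at Cdh1, which encodes E-cadherin, and 7 of 35 at Pax6. Lens fiber markers had 21 of 214 (9.81%, 6.51 to 14.54) against 24.8%. That share was 5.14% with members at q below 0.001 and 4.21% with no other peak within 500 bp, beside 18.5% over all E14.5 epithelium regions in each. The crystallins had 10 of 122 (8.20%, 4.51 to 14.4) against 22.6%, of which Cryaa, the alpha A crystallin gene, held 5 of 24, where strength gave 6.89. The rule leaves out any region with a fiber peak, and the share from strength does not allow for fiber peaks at these loci. It therefore cannot show whether the low shares at fiber markers and crystallins go beyond the rule.

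The loci of Tead and Yap, FGF and ERK and Notch genes had intervals that held 26.1%, and that of the Wnt list lay below it. The list of Tead and Yap had 68 of 312 (21.8%, 17.6 to 26.7) against 24.4% from strength, with at least 1 member at each of its 16 genes. Ccn1 and Ccn2, secreted targets of Yap, had 4 of 10 and 3 of 6, where strength gave 2.05 and 1.13. The strongest member at each had 20 fragments. Tead1 had 7 of 56, against 12.7 from strength, with a member of 22 fragments. The FGF and ERK list had 58 of 248 (23.4%, 18.5 to 29.0) against 27.1%. Spred2, an inhibitor of ERK signalling, had 8 of 27 and the receptor gene Fgfr2 had 7 of 35, where strength gave 9.85 and 8.89. The Wnt list had 73 of 378 (19.3%, 15.6 to 23.6) against 26.1%. It was led by Lef1 with 11 of 24 and the target gene Axin2 with 9 of 23, where strength gave 7.70 and 8.09. The Notch list had 74 of 299 (24.7%, 20.2 to 29.9) against 29.7%, with 16 of 35 at the receptor gene Notch2, where strength gave 11.9.

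The BMP and TGF-beta list had 104 of 371 (28.0%, 23.7 to 32.8) against 26.9%. Its members were uneven: the ligand gene Bmp7 had 25 of 51 where strength gave 17.8, and the inhibitor Smad6 had 19 of 46 against 13.2. Acvr1, Bmp2 and Tgfbr1, likewise named afterwards, had none of 7, 4 and 3 regions, where strength gave 1.77, 1.11 and 0.0272. Cell cycle genes had 87 of 294 (29.6%, 24.7 to 35.0) against 27.1%. Ccnd3, E2f2 and Mcm2 had 11 each, of 26, 29 and 41 regions, where strength gave 7.21, 7.11 and 13.6, so Mcm2 lay below its number and the other two above. Adhesion and junction genes had 82 of 365 (22.5%, 18.5 to 27.02) against 28.1%. Genes of the lens capsule, the basement membrane around the lens, had 122 of 441 (27.7%, 23.7 to 32.0) against 31.3%, of which Hspg2 held 32 of 67 and the collagen gene Col4a2 held 22 of 98.

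Marker genes of other cell types were counted in the same way. Blood vessel endothelium markers had 37 members among 94 regions (39.4%, 30.1 to 49.5), where strength gave 27.5%. Each of the 10 genes had at least 1 member, as did all 10 blood and macrophage markers and all 18 cell cycle genes. Erg had 10 of 18, Cdh5, which encodes VE-cadherin, 7 of 15, Flt1 5 of 12, and Pecam1 and Emcn 4 each, of 14 and 5. The members at these loci had a median of 10 fragments and at most 19. The Ets consensus was in 7 of the 37 (18.9%, 9.48 to 34.2), an interval that holds the 14.3% of all members. Among the same 37, the Tead consensus was in 8, Sox in 5, Gata in 4 and Fox in 1. With the 4 lists cut to the same length the share at the endothelial loci was 25% (15.5 to 37.7), beside 15.3% over all E14.5 epithelium regions in that setting, and its interval held the 18.9% that strength gave. With members at q below 0.001 it was 30.9% (22.42 to 40.8), an interval that also held the share from strength, 22.44%.

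Promoter peaks of these markers varied between the lists, and the genes given for them were picked after their values were seen. E14.5 epithelium had such a peak at 9 of the 10 endothelial genes, E14.5 fiber at 8, P0.5 epithelium at 7 and P0.5 fiber at 4. Of all 20923 protein-coding genes, 70.5%, 71.4%, 67.2% and 64.9% had one in the same order, and other marker lists also had fewer in P0.5 fiber than at E14.5, such as 5, 5, 3 and 3 of 10 blood and macrophage markers and 6, 6, 6 and 4 of 10 surface ectoderm and cornea markers. Whether the endothelial genes differ from these was not tested. Tie1 had 12 fragments in E14.5 epithelium and none of the other lists had a peak there, and Emcn, which encodes endomucin, had 7 in E14.5 epithelium alone. Kdr, the main VEGF receptor gene, had 37, 36, 30 and 9 fragments in the order of the lists above. Pecam1 had no E14.5 epithelium peak at its promoter and 10 fragments in E14.5 fiber.

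Other markers were nearer the background. Blood and macrophage markers had 31 of 119 (26.1%, 19.002 to 34.6) against 26.5%, with members of 27 fragments at Ptprc, which encodes CD45, and 22 at Csf1r. The promoters of Ptprc, Adgre1, Cx3cr1, Gata1 and Hbb-bt had no peak in any list, while the other 5 had promoter peaks in E14.5 epithelium, with 16 fragments at Csf1r, 17 at Tal1, 29 at Spi1, 66 at Klf1 and 121 at Runx1. Periocular mesenchyme and neural crest markers had 45 of 144 (31.2%, 24.2 to 39.2) against 31.8%, with 12 of 21 at Pdgfra, where strength gave 7.93. Surface ectoderm and cornea markers had 11 of 42 (26.2%, 15.3 to 41.1). The promoters of Trp63, Krt5, Krt14 and Krt12 had no peak in any list, while the other 6 had promoter peaks in E14.5 epithelium, with 15 fragments each at Krt15 and Grhl2, 20 at Grhl3, 26 at Dsp, 57 at Perp and 159 at Klf5. Retina and optic cup markers had 13 of 60 (21.7%, 13.1 to 33.6) against 20.1%. In pooled bulk libraries a few cells of another type and a weak signal in lens cells cannot be told apart, and the part of other cell types in the members was not tested.

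Promoters with a peak in E14.5 epithelium alone were few. Of 20923 protein-coding genes, 14757 had an E14.5 epithelium peak in a promoter window, and 185 (0.884%) had such a peak and none of the other lists. By contrast, 1995 genes had a member within a promoter window, and 1813 of them also had a peak of another list in it. The 185 had a median of 10 fragments, and 20 were at the minimum of 7. The strongest were Isg15, an interferon-induced gene, with 33 fragments, Tuft1 with 32, Adh7, an enzyme of retinol oxidation, with 26, D7Ertd443e with 21, Ccdc73 and Togaram2 with 19, and Hsd11b1, Lst1 and Ocstamp with 18. The peaks at Isg15 and Adh7 belong to regions that reach a peak of another list outside the window, so they are not members. Among the weaker ones, named after their values were seen, were genes of blood vessel cells: Robo4 with 14 fragments, Cd93 and Icam2 with 10, Adgrf5 with 9 and Notch4 and Ccm2l with 8.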

How the data were processed

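ATAC-seq was measured in 8 libraries, 2 for each of 4 groups of CD1 mouse lens. The authors trimmed the reads with Trim Galore 0.4.1, mapped them to mm10 with Bowtie2 2.3.3.1, removed duplicates with Picard 2.1.1 and SAMtools 1.2, merged the reads of each group and, without a control, ran MACS2 2.1 with 0.05 as the largest q value. The deposited fold enrichment of a peak is the ratio of the fragments at its summit to the background, each plus 1, and the deposited −log10 p and −log10 q values come from the same fragments. Every fold enrichment was a whole multiple of the list's step within 0.001, and the fragments were read from it. No depth of a single library was used here.

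Groups followed the labels. Peaks outside chromosomes 1 to 19 and X (102 of 100003 in E14.5 epithelium) were left out, no peak passed a chromosome end of GRCm38, and peaks were merged at 10 bp with bedtools 2.31.1. Members, gene lists and motifs were chosen with earlier results of these data known. Places used curated RefSeq transcripts, with an overlap of 1 bp and the order promoter (2 kb), gene body, distal (50 kb), intergenic. A region was assigned to the nearest start site at promoters and otherwise to the nearest gene. Shares have Wilson intervals at 95%, crude differences Newcombe intervals, and differences at the same strength normal intervals over 10 bins of −log10 p, weighted by members, with 5 bins of GC content where named. Of these steps, merging with membership and the difference over the 10 strength bins were tested on simulated data, and the others were not.

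Named genes are those of the 25 strongest members, the 10 strongest at promoters, the 5 widest, the 10 genes with most members, up to 5 of each list and the 10 strongest promoters called in E14.5 epithelium alone. Exceptions are stated, and 1 gene under the last rule is not reported here. Consensus letters, searched on both strands in windows of 200 bp, were Tead GGAATG, AP-1 TGA and TCA around any base, Ets GGAAGT, Sox ACAAAG, Maf TGCTGA, Pitx and Otx GGATTA, Fox GTAAACA, Runx TGTGGT, Nfat GGAAAA, AP-2 GCCNNNGGC, homeobox TAATTA, Meis TGACAG, Ap4 CAGCTG, Zeb and Snai CAGGTG, Klf and Sp GGGCGG, RXR AGGTCA, Smad GTCTGG, Grhl AACNNGTT, Stat TTCNNNGAA, CRE TGACGTCA, NFY CCAAT, E2F GGCGGGAA, Rfx GTTGCCA and, for the Gata family, AGATAA, with NF1 and CTCF by their core consensus. Tead, Ets and Nfat share GGAA. Pysam 0.24.0 and samtools 1.23.1 gave the sequence, values were computed with python 3.11.15, pandas 2.3.3, numpy 2.4.6 and scipy 1.17.1, and drawn with matplotlib 3.10.9. Alternatives changed the q threshold, list length, merging distance, absence within 500 bp, promoter and motif windows, transcripts, repeats and strength bins.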

Additional observations from a re-analysis of the deposited data

How the results depend on the processing

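The differences at the same strength in promoter share (15 alternatives), in Tead (14) and in Ets (14), and the Tead excess of the summit over the flanks (9), kept their direction and intervals apart from 0 under every alternative run, but not their size. With lists of equal length, the promoter difference was -6.91 points, that in Tead 5.64 and the Tead excess of the summit 11.8. With no other peak within 500 bp, the first 2 were -8.59 and 3.34 points, with those members left out of both sets -7.54 and 3.18, and with GC content held -2.16 and 1.21. Tead was at 3.15 points with members at q below 0.001, and Ets at 1.60 with a window of 100 bp. Under the other alternatives, these 4 differences stayed within 1.5 times the reported values. The number of members was 8437 with each list cut to the length of the shortest. The share of members among all E14.5 epithelium regions was 25.04% with q below 0.001 in all lists, 18.5% with members at q below 0.001 and with no other peak within 500 bp, 15.3% with lists of equal length, and 24.7% with merging at 100 bp. The promoter share was 8.71% with lists of equal length, 10.04% with merging at 100 bp, 7.10% with no other peak within 500 bp, 5.36% and 21.7% with promoters of 1 kb and 5 kb, and 16.9% with all transcripts including predicted ones. The Tead share was 18.5% with q below 0.001 in all lists, 18.8% with members at q below 0.001, 23.0% with lists of equal length, 18.1% with no other peak within 500 bp, and 9.97% and 26.95% with windows of 100 and 400 bp. The cause was not tested, except that a wider window holds more letters and more start sites by construction. Strength by fold enrichment gave the same bins as by p, since both follow from the fragments. The strata of single fragment counts and of GC content, and the comparison that left members near another list's peak out of both sets, were chosen after seeing the data. No paired analysis was possible because the authors pooled the libraries of each group before calling peaks, and for the same reason no library could be left out. With 7 fragments, members fall under the weakest call of either P0.5 list by both scalings, with 8 by the ratio of backgrounds alone, and the part of depth in their absence there was not tested.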

Other observations

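Members were also set beside the mouse and human enhancers tested in transgenic embryos that RefSeq lists from the VISTA collection, a comparison added after seeing the data. Of 480 E14.5 epithelium regions that overlapped one of 620 positive enhancers, 79 (16.5%, 13.4 to 20.04) were members, where strength gave 21.5%. By tissue, the share ran from 12.2% (5.32 to 25.5) of 41 regions at enhancers of the nose to 29.6% (19.1 to 42.8) of 54 at those of the branchial arch, where strength gave 20.7% and 24.4%, beside the 26.1% over all regions. Enhancers active in the eye, the organ studied, had 7 of 43 (16.3%, 8.12 to 29.97), where strength gave 21.5%, and those of blood vessels had 6 of 23 (26.1%, 12.5 to 46.5), where strength gave 19.5%. An enhancer can be listed under several tissues, so the tissues share regions and their shares are not separate results. The interval over all positive enhancers lies below its share from strength, and those of the nose, branchial arch, eye and blood vessels hold theirs. Those of the forebrain (18 of 136, 13.2%, 8.54 to 19.95), the midbrain (21 of 155, 13.5%, 9.04 to 19.8) and the neural tube (12 of 94, 12.8%, 7.46 to 20.9999) lie below theirs, which were 21.7%, 21.7% and 21.8%.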
